A study of Schizosaccharomyces pombe with 6 samples.

Results

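Small RNA bound to Argonaute was counted over 220 protein-coding loci of fission yeast. They were chosen for a low ratio of reads in nitrogen starvation to reads in growth, no more than 2. A locus belonged to the set when its ID began with SPA, SPB or SPC, when its 3 growth libraries together held 20 or more reads, and when its 3 starvation libraries held no more than 2 times that number. Of 6878 counted features, 5129 had a coding ID without TRNA, 1447 of these had 20 or more reads in growth, and 231 also met the ratio. Leaving out 6 named genes (pho4, eng1, pho1, tlh1, tlh2 and SPAC212.06c) and 5 ribosomal protein genes (mrp20, mrpl24, mrpl12, rps2501 and rpl3801, with mrpl read as mrp) gave the 220. RefSeq annotated 219 of them as protein-coding, and SPBC460.05 had no match. The members were thus chosen by the measured counts of both groups, and the difference between them over these genes is described below and is not a finding.

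The working name of the set, coding genes with small RNA mainly in growth, holds on only some scales of measurement. In plain reads, 170 of the 220 genes had more reads at 24h than at 0h, 48 had fewer and 2 had equal numbers, 15250 reads against 19246 in all. The starvation libraries together held 3.47 times as many reads assigned to features as the growth libraries, and 24h replicate 3 alone supplied 71.4% of the starvation reads. Relative to the typical tested feature (TMM scaling, the trimmed mean of M-values), all 220 had a lower mean at 24h. Relative to all aligned reads, 209 had a higher mean at 24h and 11 a lower one. The set is therefore called here by its rule, as genes with a low ratio of starvation to growth reads.

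Fission yeast has 1 Argonaute protein, Ago1, which carries small RNAs cut by Dicer and guides the machinery that places heterochromatin at the centromeres, the mating-type region and the chromosome ends. Ago1 also carries small RNAs from ordinary transcribed genes, which can arise without Dicer as fragments of abundant transcripts. Removing nitrogen from fission yeast stops growth, and cells without a mating partner divide, arrest before DNA replication and enter quiescence.

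Both groups were the strain labelled wt (975 h+), with 3 replicates each: 0h, cells growing in EMM minimal medium at 32 °C with adenine, histidine, leucine, lysine and uracil added, and 24h, cells kept 24 h in EMM without nitrogen. RNA of 20 to 30 nucleotides was taken from a pull-down on beads that bind the FLAG peptide, while the labels name no tagged ago1 allele. No label says whether replicates were separate cultures, so p-values measure the spread between these samples, which may be technical. In such pooled cells, fewer cells carrying a small RNA and less of it per cell cannot be told apart.

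Depth was low and uneven. Assigned reads numbered 48040, 112578 and 145861 at 0h and 54393, 249986 and 758789 at 24h. Aligned reads numbered 1636419 to 33555536, of which 90.3 to 96.4% were tallied as of low mapping quality and not assigned. Assigned reads were 0.495, 0.501 and 0.601% of aligned reads at 0h and 3.32, 5.39 and 2.26% at 24h. Values per aligned read carry this difference between the groups for every feature. Values for a gene below are CPM, its reads scaled with the TMM factors to a library of 1000000 assigned reads, in replicates 1, 2 and 3, in that order. Values at 0h come before those at 24h, and a mean is given ± SD with n = 3. CPM is not divided by gene length, so levels are not compared between genes. Intervals and floors cover counting error only.

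The 220 genes held 3.79, 4.63 and 5.63% of assigned reads at 0h, a mean of 4.69% ± 0.920, and 1.80, 2.34 and 1.64% at 24h, a mean of 1.92% ± 0.368. In CPM of all aligned reads, the same genes held 188, 232 and 338 at 0h and 597, 1261 and 370.2 at 24h, means of 253 ± 77.3 and 743 ± 463. Every 24h library lay below every 0h library in the share of assigned reads and above every 0h library per aligned read. The 3 genes with the most reads in growth (nmt1, thi2 and cpc2) supplied 21.3% of the set's growth reads, and the first 10 supplied 30.9%. At the other end, 106 genes had fewer than 40 reads in growth.

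**Figure D1:**
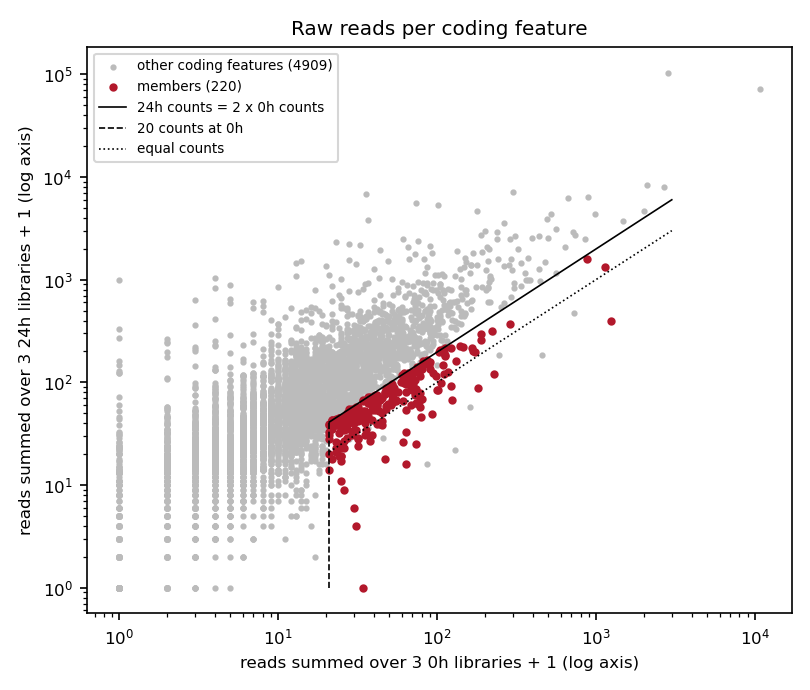
Raw reads per coding feature summed over the 3 libraries of each group, plus 1, on log axes; members of the set are red, other coding features grey, and the lines mark 20 reads at 0h, 2 times the 0h reads and equal reads. Most of the red points, 170 of 220, lie above the line of equal reads.

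On the TMM scale the median gene was 3.83-fold lower at 24h, and 216 of 220 were at least 2-fold lower, 102 at least 4-fold and 27 at least 8-fold. The smallest difference was 1.54-fold, for trm401, a tRNA cytosine methyltransferase. In edgeR's quasi-likelihood test over 1716 features (Benjamini-Hochberg adjusted p below 0.05), 139 members had enough counts to be tested, 125 were called lower, 0 higher and 14 did not pass, where 12.8% of all tested features were called lower and 13.1% higher. At an unadjusted p below 0.05 the number higher was also 0, against 20.9% of all features. DESeq2 gave 132 lower and 0 higher, against 14.1% and 14.7% of the features it tested. The fitted log2 changes ran from -3.92 for SPAC644.09 to -1.21 for gas1, with a median of -1.83 against -0.02 over all tested features. All 3 24h libraries lay below all 3 0h libraries for 122 of the 139 tested and 179 of the 220 members, against 19.7% of all tested features. These counts follow from the rule.

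Scaled to aligned reads, none of the 139 tested members was called lower (0 also at an unadjusted p below 0.05) and 81 were called higher, where 0.233% of all features were called lower and 93.9% higher. Their median log2 change was 1.67, against 3.55 over all tested features. All 3 24h libraries lay above all 3 0h libraries for 74 of the 139 tested and 98 of the 220 members. That held for 92.3% of all tested features. The 24h libraries all lay below the 0h libraries for 0 of the tested and 2 of the 220 members, against 0.35% of tested features. Scaled to library totals alone, 62 members were called lower and 0 higher, with a background of 5.54% lower and 33.1% higher, and the median was -1.14 against 0.69. What is common to all these scales is that the set lies below the other features, by the rule's design. Per aligned read, the median of its genes' folds of 24h over 0h was 3.01, against 10.9 for the other coding features with 20 or more reads at 0h.

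**Figure D2:**
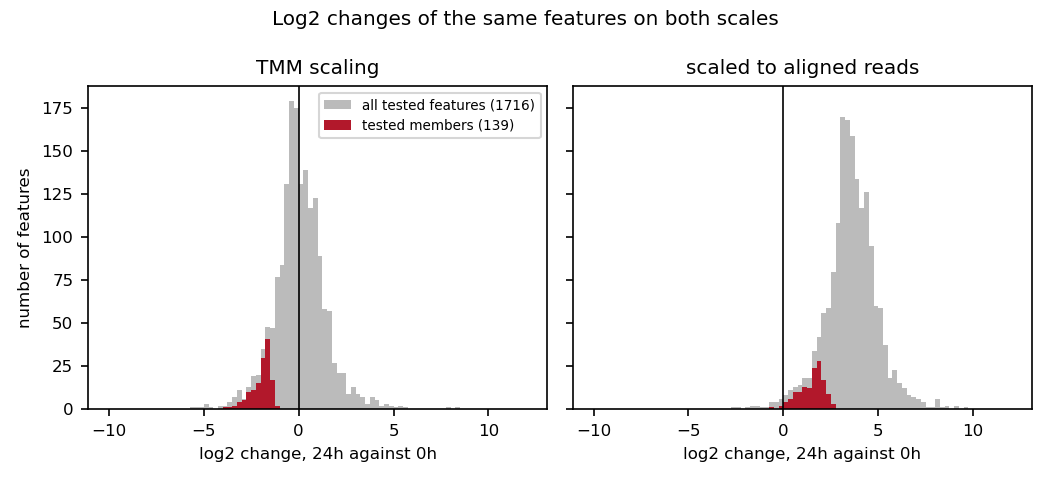
Number of features at each log2 change of 24h against 0h with TMM scaling (left) and with scaling to aligned reads (right); all 1716 tested features are grey and the 139 tested members red. The median of the members is -1.83 on the left and 1.67 on the right, below the median of all features on both.

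The edges of the set are not sharp. Just inside the minimum of 20 growth reads were shf1, mud1 and SPBC13G1.05 with 20, and just outside were pds5, pus9 and rlc1 with 19. Just inside the ratio limit were SPCC13B11.02c (61 reads at 0h and 122 at 24h), lam1 (33 and 66) and gta1 (27 and 54). Just outside lay pdt1 (69 and 139), nte1 (110 and 222) and gsa1 (49 and 99). Of the members, 43 had a ratio of 1.8 or more, while 38 coding features that failed the limit had a ratio up to 2.2. The same rule without 1 library, its limits kept, took 159, 62 and 33 genes when 0h replicate 1, 2 or 3 was left out. It took 239, 421 and 886 when 24h replicate 1, 2 or 3 was left out. With fixed limits on summed reads, leaving out a 0h library could only remove genes, and leaving out a 24h library only add them. These numbers therefore do not show how sharp the edges are.

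For comparison with each gene list below, 220 of all 1447 coding features with 20 or more growth reads were members. For the calls given below, the comparison is 12.8% lower and 13.1% higher among all 1716 tested features. For genes without overlap it is 19.7% of tested features with all 24h libraries below all 0h libraries. That held for 179 of the 220 members, by the rule. Vitamin synthesis supplied the genes with the most reads. Thiamine is built from a pyrimidine part and a thiazole part, and vitamin B6 is the cofactor of many amino acid enzymes. Of 7 listed thiamine and vitamin B6 genes with 20 or more growth reads, 5 were members, pho4 was left out by ID, and thi9, the thiamine transporter gene, lay outside the ratio. Of the 7 tested, 6 were called lower, 0 higher, and thi9 had a log2 change of 0.18. The summed level of the 5 members was 6595, 8774 and 16739 CPM at 0h and 2807, 2624 and 1288 at 24h, 4.78-fold lower. Per aligned read the same sum was 2.64-fold higher at 24h.

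Among these, nmt1, which makes the pyrimidine part of thiamine and carries the best-known regulated promoter of fission yeast genetics, had 2198, 3167 and 7432 CPM at 0h and 612, 592 and 142 at 24h. The 0h mean of 4266 ± 2784 was 9.51-fold above the 24h mean of 449 ± 266, and the groups did not overlap. The fitted log2 change of -3.28 became -2.69 without 0h replicate 3. For thi2, which makes the thiazole part, the libraries had 2981, 3526 and 5975 CPM at 0h and 1673, 1531 and 734 at 24h, 3.17-fold lower. In both genes 0h replicate 3 was the highest library of the 6. The call of thi2 was lost when 0h replicate 2 (-1.78), 0h replicate 3 (-1.39), 24h replicate 1 (-1.83) or 24h replicate 3 (-1.44) was left out.

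These parts are joined to thiamine phosphate by the bifunctional enzyme of thi4, a gene with 392, 486 and 528 CPM at 0h and 44.8, 73.0 and 71.1 at 24h, 7.44-fold lower and without overlap. Vitamin B6 enters through bsu1, a plasma membrane carrier, which had 331, 496 and 1457 CPM at 0h and 134, 113 and 78.4 at 24h. Its 0h replicate 3 stood well above the other libraries, and its log2 change moved from -2.91 to -2.13 without it. The B6 synthase gene snz1 had 693, 1098 and 1347 CPM at 0h and 343, 315 and 262 at 24h, 3.41-fold lower, with all 24h libraries below the 0h ones.

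Other members annotated with thiamine or vitamin B6 roles were picked out after their values were seen. Their lower means at 24h follow from the rule, as for all 220 members, and add no support. The phosphomethylpyrimidine kinase gene thi201 had 301, 243 and 384 CPM at 0h and 29.9, 32.7 and 36.2 at 24h, 9.39-fold lower. SPBC530.07c, of the TENA/THI family, had 181, 222 and 384 against 29.9, 55.4 and 60.3 CPM, and the B6 kinase gene SPCC18.10 had 241, 52.8 and 59.7 against 29.9, 30.2 and 21.7 CPM. SPAC644.09, annotated as a pyridoxal phosphate homeostasis protein, had 241, 158 and 426 CPM at 0h and 14.9, 17.6 and 19.3 at 24h. Its log2 change of -3.92 (SE 0.46) was the lowest of the tested members, and it was 0.731 times the 0h mean per aligned read as well.

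**Figure D3:**
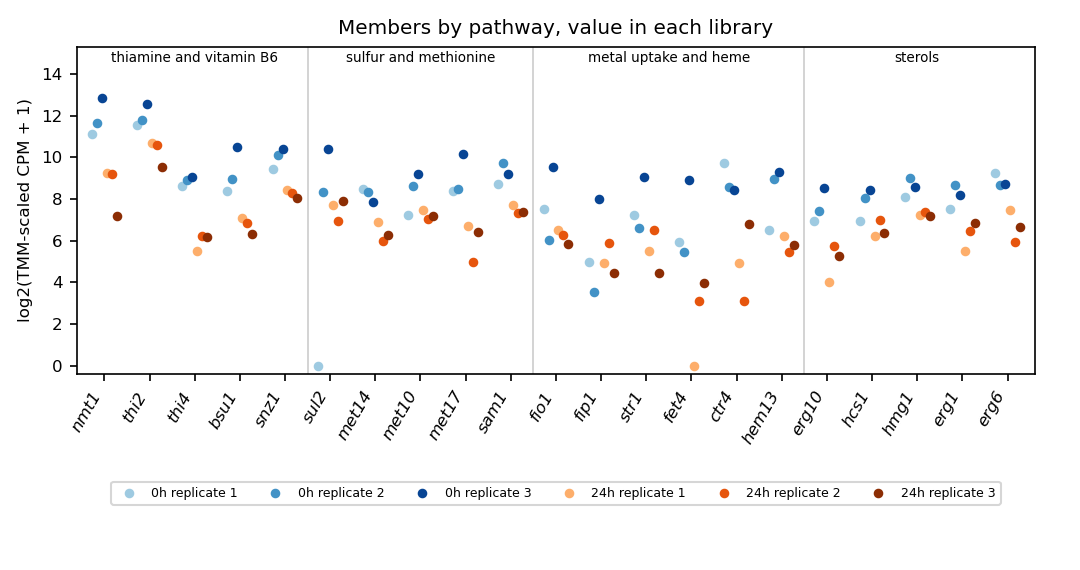
TMM-scaled CPM plus 1 on a log2 scale for members of 4 groups of genes in each of the 6 libraries (blue 0h, orange to brown 24h, darker with replicate number). 0h replicate 3 is the highest library for nmt1, thi2, bsu1, fio1, fip1, str1 and fet4, and sul2 has 0 reads in 0h replicate 1.

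A group for sulfate assimilation and methionine, the route from external sulfate through sulfide to methionine and the methyl donor S-adenosylmethionine, was drawn up after the values were seen. Of 13 such genes with 20 or more growth reads, 7 were members. Of 13 tested, 6 were called lower, 0 higher and 7 did not pass. The non-members sul1, sua1, sir1, met26, met6 and cys11 did not pass, with log2 changes from -1.13 (sua1) to 0.38 (cys11). The summed level of the 7 members was 1867, 3041 and 4995 CPM at 0h and 1045, 796 and 872 at 24h. It was 3.65-fold lower at 24h, and 3.06-fold higher per aligned read. At the entry, the sulfate transporter gene sul2 had 0, 327 and 1329.6 CPM at 0h and 209, 121 and 238 at 24h. These groups overlapped, sul2 did not pass the test, and its log2 change moved from -1.65 to -0.19 without 0h replicate 3 and to -2.15, past the threshold, without 0h replicate 1.

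Later in the route, the adenylyl-sulfate kinase gene met14 had 361, 327 and 230.1 CPM at 0h and 119, 62.9 and 76.0 at 24h, 3.56-fold lower. The sulfite reductase subunit gene met10 had 151, 391 and 588 against 179, 131 and 146 CPM, with 0h replicate 1 inside the range of the 24h libraries. The homocysteine synthase gene met17, where sulfide is joined to a carbon skeleton, had 331, 359 and 1151 CPM at 0h and 105, 30.2 and 83.2 at 24h. Its groups did not overlap, it was 8.45-fold lower, and its log2 change moved from -3.24 to -2.45 without 0h replicate 3. Another member of this group, the acetyltransferase gene cys2, had 90.3, 116 and 324 against 29.9, 60.4 and 51.8 CPM.

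Methyl transfer closes the route. The S-adenosylmethionine synthetase gene sam1 had 422, 855 and 588 CPM at 0h and 209, 159 and 165 at 24h, 3.50-fold lower. The adenosylhomocysteinase gene SPBC8D2.18c, whose enzyme clears the product of methylation, had 512, 665 and 784 against 194, 232 and 112 CPM. Neither gene overlapped between groups. Both were higher in mean per aligned read at 24h, by 3.32-fold and 3.66-fold.

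The adjacent genes SPBPB10D8.01, annotated as a cysteine transporter, and SPBPB10D8.02c, annotated as an arylsulfatase, are transcribed toward each other on chromosome II and had the lowest ratios of 24h to 0h CPM among the members whose groups did not overlap. Reads numbered 3, 8 and 18 at 0h and 0, 0 and 5 at 24h for SPBPB10D8.01, and 3, 7 and 20 against 0, 1 and 2 for SPBPB10D8.02c. For SPBPB10D8.01 the TMM-scaled fold was 54.4. For SPBPB10D8.02c the ratio of pooled reads was 52.7 on the TMM scale (95% counting interval 16.4 to 270.1) and 7.06 per aligned read (2.20 to 36.1). These were the 2 members whose 24h libraries all lay below the 0h libraries also per aligned read.

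In the wider list of amino acid synthesis, 6 of 39 genes with 20 or more growth reads were members. That share is close to the 220 of all 1447 such coding features. Of 38 tested genes, 8 were called lower, 0 higher and 30 did not pass, where 12.8% of all tested features were called lower and 13.1% higher. The serine pathway gene ser3, a phosphoglycerate dehydrogenase, had 482, 686 and 912 CPM at 0h and 329, 196 and 235 at 24h, 2.74-fold lower. The lysine pathway gene lys3, a saccharopine dehydrogenase, had 211, 306 and 341 against 44.8, 75.5 and 109.7 CPM. The first histidine pathway gene, his1, had 151, 201 and 145 against 44.8, 42.8 and 45.8 CPM. None of these 3 overlapped between groups, and the call of ser3 was lost without 0h replicate 2 at a log2 change of -1.53.

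Reads of the metal uptake genes were spread unevenly over the growth libraries. Fission yeast takes up iron through a ferroxidase and permease pair at the plasma membrane (fio1 and fip1), and through siderophore importers such as str1, and fet4 is annotated as an iron and zinc carrier. All 3 listed iron uptake genes with 20 or more growth reads were members. Of the 3 tested genes of that list, fio1 and str1 were called lower. The third, the non-member fep1 with 15 growth reads, did not pass at a log2 change of 0.88. The member fip1 had too few counts to be tested. The summed level of the 3 members was 361, 169 and 1543 CPM at 0h and 164, 224 and 97.7 at 24h, so that 0h replicate 3 held 74.4% of the growth sum and 0h replicate 2 lay within the 24h range.

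The copper oxidase gene fio1 had 181, 63.3 and 750.0 CPM at 0h and 89.6, 75.5 and 56.7 at 24h, and its permease partner fip1 had 30.1, 10.6 and 256 against 29.9, 57.9 and 20.5. Both overlapped between groups. For str1 the values were 151, 95.0 and 537 CPM at 0h and 44.8, 90.6 and 20.5 at 24h, and for fet4 60.2, 42.2 and 486 against 0, 7.55 and 14.5. Without 0h replicate 3 the log2 change of fio1 moved from -2.35 to -0.63 and that of str1 from -2.47 to -1.23, and neither passed. Leaving out 24h replicate 1 or 24h replicate 3 also ended the call of both, and leaving out 24h replicate 2 ended that of fio1 and put str1 at -3.50.

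In the group of iron, copper and zinc uptake, drawn up after the values were seen, 7 of 8 genes with 20 or more growth reads were members. The other, the siderophore synthesis gene sib1, had 132 reads at 0h and 618 at 24h, outside the ratio limit. Of 5 tested, 4 were called lower, 0 higher and 1 did not pass, which was sib1 at a log2 change of 0.31. The members ctr4 and zrt1 had their highest values in 0h replicate 1. The copper transporter gene ctr4 had 843, 380.1 and 349 CPM at 0h and 29.9, 7.55 and 112 at 24h, and was 10.5-fold lower. The zinc transporter gene zrt1 had 452, 253 and 281 against 44.8, 57.9 and 94.0 CPM. The siderophore synthesis gene sib2, an ornithine monooxygenase, had 90.3, 211 and 384 against 29.9, 22.7 and 57.9 CPM, with 0h replicate 3 the highest. All 3 were without overlap, and ctr4 was 0.751 times its 0h mean per aligned read, 1 of the 11 members with a lower mean on that scale.

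Heme and biotin, a pair of cofactors grouped after the values were seen, were each represented by all their genes with 20 or more growth reads, 3 of 3 for both. Heme synthesis starts with hem1, 5-aminolevulinate synthase, which had 331, 338 and 392 CPM at 0h and 105, 113 and 100.1 at 24h, among the most even members within each group. The later gene hem13, coproporphyrinogen oxidase, had 90.3, 496 and 631 against 74.7, 42.8 and 54.3 CPM, and hem14, protoporphyrinogen oxidase, had 90.3, 63.3 and 145 against 0, 15.1 and 33.8. Of 3 heme genes tested, 2 were called lower, 0 higher and 1 did not pass. The gene that did not pass was the non-member hem3, with 18 growth reads and a log2 change of 0.44. The member hem14 had too few counts to be tested. The 3 heme members summed to 859 ± 330 CPM at 0h and 179.5 ± 8.44 at 24h, with no overlap. Of 3 biotin genes tested, 3 were called lower. The biotin genes, the transporter vht1, the synthase bio2 and the biotin-protein ligase bpl1, summed to 703 ± 107 and 179 ± 66.2 CPM. Among them bio2 overlapped between groups, with 0 reads in 0h replicate 1.

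Sterol synthesis makes ergosterol, the main sterol of yeast membranes, from acetyl-CoA through mevalonate, farnesyl diphosphate and squalene. Of 15 listed sterol genes with 20 or more growth reads, 8 were members, and of 14 tested, 5 were called lower, 0 higher and 9 did not pass. The 8 members summed to 1476, 2175 and 2293 CPM at 0h and 687, 637 and 594 at 24h, 3.10-fold lower and 3.85-fold higher per aligned read. In the early steps erg10, acetyl-CoA acetyltransferase, had 120.5, 169 and 366 CPM at 0h and 14.9, 52.9 and 37.4 at 24h. The HMG-CoA synthase gene hcs1 had 120.5, 264 and 349 against 74.7, 126 and 80.8 CPM, and 24h replicate 2 lay just above 0h replicate 1. The HMG-CoA reductase gene hmg1, the rate-limiting step in textbooks, had 271, 517 and 375 against 149, 166 and 145 CPM, with no overlap.

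Further along, the squalene monooxygenase gene erg1 had 181, 412 and 289.8 CPM at 0h and 44.8, 88.1 and 115 at 24h, and the methyltransferase gene erg6 602, 412 and 426 against 179, 60.4 and 101. Both were without overlap, 3.57-fold and 4.22-fold lower. The desaturase gene erg31 did not pass and overlapped, as did the untested reductase gene erg24 (90.3, 84.5 and 119 against 89.6, 45.3 and 25.3 CPM). Calls were lost for hmg1 (-1.11) and erg1 (-1.44) without 0h replicate 2, and for hcs1 when either of 0h replicates 2 and 3 or of 24h replicates 1 and 3 was left out, between -1.19 and -1.44. In a mevalonate group drawn up after the values were seen, all 5 genes with 20 or more growth reads were members: erg10, hcs1, hmg1, mvd1 and fps1.

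Members annotated with roles at the cell wall and septum are given singly. The beta-glucosidase gene adg3 had 181, 232 and 349 CPM at 0h and 105, 85.6 and 71.1 at 24h, and the septin ring organiser mid2 had 151, 169 and 264 against 44.8, 55.4 and 47.0. The alpha-glucanase gene agn1 had 60.2, 95.0 and 153 against 14.9, 30.2 and 24.1 CPM. None of these 3 overlapped between groups, whereas the chitin synthase regulator gene cfh4 did (60.2, 84.5 and 111 against 74.7, 45.3 and 25.3 CPM).

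Other wall genes were mixed. The glucanosyltransferase gene gas1, which elongates beta-glucan, had 181, 443 and 494 CPM at 0h and 134, 237 and 125 at 24h, overlapped between groups and did not pass, though it passed without 0h replicate 1 (-1.49) or 24h replicate 2 (-1.60). The glucosidase gene exg1 had 120.5, 369.5 and 511 against 14.9, 68.0 and 67.5 CPM, 6.66-fold lower. The chitinase gene cts2 had 211, 137 and 341 against 44.8, 15.1 and 19.3 CPM, 8.70-fold lower. In the wall synthesis list 2 of 9 genes with 20 or more growth reads were members, and of 10 tested, 2 were called lower, 3 higher and 5 did not pass.

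As for the lists above, the comparison for the lists that follow is 220 members among all 1447 coding features with 20 or more growth reads. For calls it is 12.8% lower and 13.1% higher among all tested features. From the G1/S list, 2 of 5 genes with 20 or more growth reads were members: nrm1, a repressor of the MBF transcription factor that drives DNA replication genes, with 120.5, 127 and 188 CPM at 0h and 44.8, 15.1 and 53.1 at 24h, and tos4 with 30.1, 63.3 and 128 against 0, 20.1 and 16.9. The change of nrm1 moved from -1.99 to -2.85 without 24h replicate 3. Of 7 mitosis and cytokinesis genes with 20 or more growth reads, 0 were members. From the cytoskeleton list 2 of 8 such genes were members, and of 7 tested, 1 was called lower, 0 higher and 6 did not pass. These were the alpha tubulin genes nda2 (90.3, 179 and 170.5 against 14.9, 55.4 and 61.5 CPM) and atb2 (211, 137 and 93.8 against 14.9, 22.7 and 21.7 CPM). They share sequence, as do the histone H3 genes, of which hht1 alone was a member of the 9 core histone genes with 20 or more growth reads. Counts of such copies are uncertain, because reads of low mapping quality were not assigned. The call of nda2 was lost without 0h replicate 2, at -1.44. In the gamma tubulin complex, which starts microtubules and was grouped after the values were seen, 2 of 2 such genes were members, alp4 (361, 486 and 256 against 74.7, 55.4 and 145 CPM) and mod21 (151, 137 and 579.6 against 105, 17.6 and 179.7 CPM). Only alp4 was without overlap and called lower.

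The gene cpc2 encodes the RACK1 protein of the small ribosomal subunit and had 4367, 3991 and 3000.1 CPM at 0h and 896, 1299 and 1211 at 24h, 3.33-fold lower and without overlap. Its call was lost without 0h replicate 2 (-1.68) or 24h replicate 1 (-1.53). The Ran GTPase gene spi1 had 663, 813 and 1031 against 224, 219 and 254 CPM, and the gene of its activating protein, rna1, was a member too. Among splicing genes grouped after the values were seen, 5 of 8 with 20 or more growth reads were members (prp17, prp1, snu66, cwf14 and prp18). Of 8 tested, 5 were called lower, 0 higher and 3 did not pass, where 12.8% of all tested features were called lower and 13.1% higher. The 5 members summed to 1061 ± 107 CPM at 0h and 260 ± 83.3 at 24h. Each of the 5 was without overlap, as were 179 of the 220 members by the rule and 19.7% of all tested features. For prp18 the values were 151, 148 and 128 against 29.9, 22.7 and 33.8 CPM.

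Deadenylation and decapping, the steps that shorten the poly(A) tail and remove the cap of a messenger RNA, were grouped after the values were seen. Of 8 such genes with 20 or more growth reads, 4 were members. Of 5 tested, 1 was called lower, 1 higher and 3 did not pass. The gene called higher was the non-member pat1, with a log2 change of 1.69. The gene pan3, a subunit of the PAN deadenylase, had 1175, 686 and 545 CPM at 0h and 59.7, 103 and 188 at 24h, 6.85-fold lower. The decapping cofactor gene lsm1 had 120.5, 137 and 59.7 against 14.9, 10.1 and 15.7 CPM. The decapping subunit gene dcp1 had 1024, 10.6 and 93.8 CPM at 0h and 44.8, 5.04 and 14.5 at 24h, so that 90.8% of its growth level came from 0h replicate 1 and the groups overlapped.

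Of the aminoacyl-tRNA ligase genes, 2 of 22 with 20 or more growth reads were members, rar1 for methionine and nrs1 for asparagine, and neither passed the test. Several large growth functions had no member. This was so for 14 glycolysis and fermentation genes, 11 of the citrate cycle, 16 chaperone genes, 12 of purine and pyrimidine synthesis, 13 translation factors and 13 ribosome biogenesis genes, each counted among genes with 20 or more growth reads. It was also so for 5 of fatty acid and inositol synthesis and 4 of RNA polymerases I and III. The 3 genes of RNA interference and heterochromatin and the 6 of growth signalling held no member either. Of 2 phosphate genes with that many reads, pho84 lay outside the ratio limit. The other, pho1, met the count rule and was called lower (-3.42), but was left out by ID. Of 7 proton pump genes 1 was a member, vma11 of the vacuolar pump (723, 538 and 307 against 209, 80.6 and 205 CPM). In the AP-3 adaptor of vesicle transport, grouped after the values were seen, 2 of 2 genes were members, apl6 (331, 264 and 153 against 44.8, 47.8 and 54.3 CPM) and apl5 (211, 148 and 273 against 29.9, 57.9 and 74.8 CPM). Of the 220 members, 154 were in none of the lists and 34 had only a systematic ID.

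Large differences were also seen in single genes of other functions. The tRNA pseudouridine synthase gene pus2 had 361, 127 and 119 CPM at 0h and 0, 20.1 and 26.5 at 24h, a log2 change of -2.93 (SE 0.56). The DNA glycosylase gene mag2 had 2, 14 and 9 reads at 0h and 0, 1 and 7 at 24h, 26.0-fold lower in CPM. Folds between 10.8 and 12.5 were seen for pcf3, a subunit of the chromatin assembly factor, erj5, a DNAJ-domain protein, srp40, a nucleocytoplasmic transport chaperone, and irc6, annotated in recombination. Each of these 4 genes had 21 to 25 growth reads. SPBC460.05 had 0, 2 and 31 reads at 0h and none at 24h. It was at least 58.0-fold lower on the TMM scale and at least 7.76-fold lower per aligned read, with 3 counts over the 24h group as the floor, but its growth reads lay almost wholly in 0h replicate 3 and its libraries overlapped at 0.

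The rule used the sum over the 3 growth libraries, and a high value in 1 of them raises that sum, so the makeup of the sum is described without a test. The highest growth library was replicate 1 for 74 members, replicate 2 for 58 and replicate 3 for 88, and for the other 1227 coding features with 20 or more growth reads it was 423, 373 and 431. More than 50% of the growth level came from 1 library for 31, 16 and 38 members in replicates 1, 2 and 3, against 103, 67 and 121 of the 1227 other features. A sum over libraries of unequal depth gives replicate 3, the deepest at 0h, the most weight in choosing members.

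By pathway, the highest growth library is given here as a description, without a test. Replicate 3 was highest for 5 of 5 thiamine and vitamin B6 members, 3 of 3 heme members, 5 of 7 sulfate and methionine members and 5 of 7 metal uptake members. It was highest for 0 of 3 biotin members, 0 of 5 splicing members and 1 of 4 deadenylation and decapping members. The largest single shares in replicate 3 were in SPBC460.05 (92.6%), fip1 (86.3%), fet4 (82.6%) and sul2 (80.2%), and fio1 had 75.5% there. The iron genes frp1 and str3, with too few growth reads to be members, had 91.3% and 89.0% of their growth level there. What set these libraries apart was not tested. The most even members were gmh4, a galactosyltransferase gene (241, 253 and 239 CPM at 0h, 29.9, 42.8 and 55.5 at 24h), rrg9 (392, 380.1 and 366 against 89.6, 15.1 and 43.4) and vgl1, which encodes vigilin (452, 412 and 460.2 against 105, 121 and 109).

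**Figure D4:**
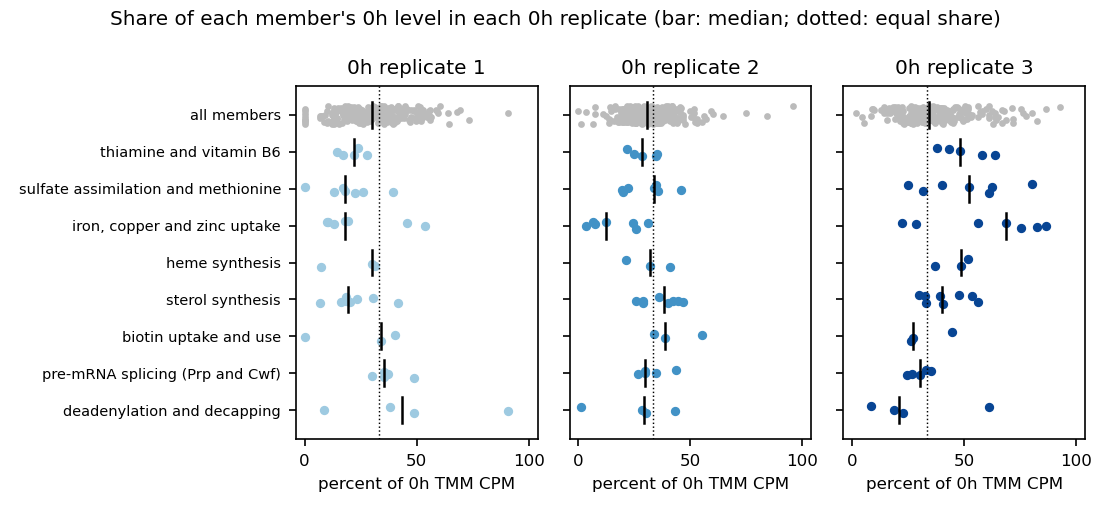
Percent of each member's summed 0h TMM-scaled CPM that came from each 0h replicate, by group of genes (points are members, bars medians, the dotted line an equal share). In replicate 3 the median is 68.6% for metal uptake and 47.9% for thiamine and vitamin B6 members, against 34.3% for all members, and it is 30.0% for splicing.

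Members lay on chromosomes I, II and III in numbers of 97, 91 and 31. The next coding gene on either side was a member for 31 of 219 placed members (14.2%) and for 114 of 1226 other coding features with 20 or more growth reads (9.30%). There were 16 adjacent pairs, 9 convergent, 4 divergent and 3 tandem. The divergent pairs included fip1 with fio1, which share an upstream region, and pan3 with bsu1, while nmt1 had its neighbour hel2, a ubiquitin ligase gene, in tandem. A convergent coding gene lay downstream of 62.1% of members, 56.8% of the other features and 54.4% of all coding genes.

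A run of neighbouring genes on chromosome I shared an excess in 0h replicate 2. The oxoprolinase gene SPAC11D3.14c had 30.1, 380.1 and 42.6 CPM at 0h and 0, 55.4 and 36.2 at 24h, and its neighbour SPAC11D3.15, outside the ratio limit, had 181, 644 and 85.2 against 149, 113 and 122. After a gap of 2 genes came SPAC11D3.18c, annotated as a carboxylic acid transporter, with 120.5, 380.1 and 8.52 against 44.8, 88.1 and 44.6 CPM, and dgc1, a D-glutamate cyclase gene, with 0, 369.5 and 17.0 against 59.7, 20.1 and 16.9. Replicate 2 held 83.9, 70.8, 74.7 and 95.6% of the growth level of these 4 genes. The genes between them, SPAC11D3.16c and SPAC11D3.17, did not share the excess. All 3 members of the run named here overlapped between groups.

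**Figure D5:**
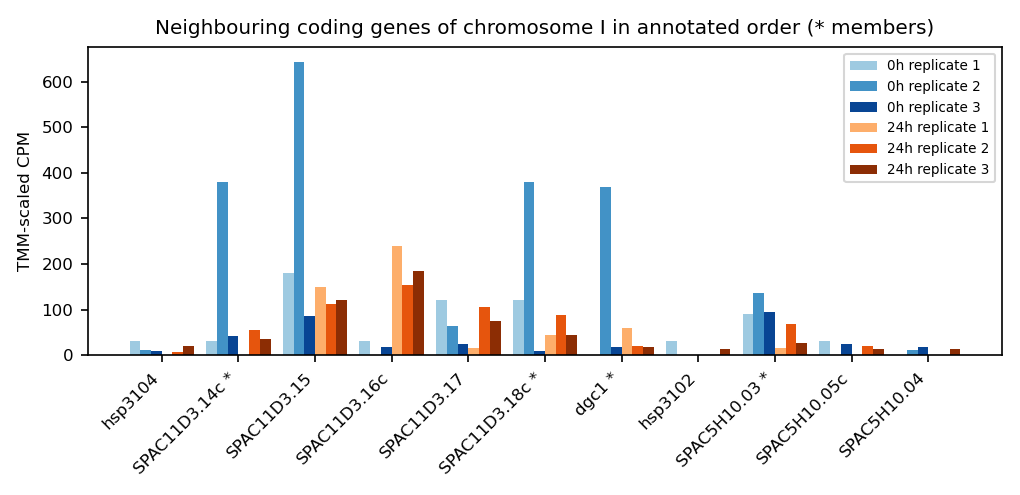
TMM-scaled CPM of 11 consecutive coding genes of chromosome I in annotated order, in each of the 6 libraries (blue 0h, orange to brown 24h; members marked with an asterisk). 0h replicate 2 stands at 380.1 CPM for SPAC11D3.14c and SPAC11D3.18c, 644 for SPAC11D3.15 and 369.5 for dgc1, above every other library.

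The 14 tested members that did not pass were sul2, gas1, mod21, SPCC13B11.02c, fmo1, rar1, nrs1, erg31, SPAC11D3.18c, osm1, ppk26, eta2, trm401 and gta1. They include subunits or enzymes already described and mod21, of the gamma tubulin complex, osm1, a fumarate reductase, and eta2, an RNA polymerase I termination factor. All had a lower mean at 24h on the TMM scale. A further 81 members had too few counts to be tested.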

How the data were processed

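Ago1-associated small RNA was sequenced in 6 libraries, 3 at 0h and 3 at 24h without nitrogen. The authors deposited raw counts per feature, made, per the submitters' processing notes, with cutadapt, Bowtie2 2.1.0 and HTSeq 0.6.1 on the build ASM294v2. Program options, such as which strand was counted as a gene's own, are not given in the sources used here. Tally lines were kept out of library sizes and tests, and 48040 to 758789 reads per library were assigned. Names and neighbours came from RefSeq annotation of ASM294v3, in which 6706 of 6878 IDs matched directly, 16 through older IDs or synonyms and 156 not at all. As builds differ, no coordinates, lengths or sequences were used, and the planned search of promoter motifs was not run.

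Counts were scaled by TMM and fitted with edgeR 4.0.16 in R 4.3.3 (filterByExpr with a minimum count of 10, robust quasi-likelihood fit on group, Benjamini-Hochberg adjustment over 1716 features, threshold 0.05). The script was tested on simulated data. SE is the log2 change divided by the square root of F. Alternatives were library totals, RLE factors, aligned reads, DESeq2 1.42.0, other filters, a replicate block, other limits of the rule and each library left out. The members and gene lists were chosen with earlier results of these data known, and 9 lists after the values were seen; 1 list is not reported here. Genes named were the 10 with most growth reads, the 10 with the lowest ratio of means without overlap, up to 4 per list with 2 or more members, the 3 on each side of each limit and the 4 with the largest share of raw growth reads in 1 library; others were named after their values were seen.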

Additional observations from a re-analysis of the deposited data

How the results depend on the processing

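Scaling decided the direction of the set. With library totals 95 features were called lower and 568 higher, 62 members lower, and the members' median log2 change was -1.14. With aligned reads the numbers were 4, 1611 and 0, 81 members were called higher, and the median was 1.67. On that scale the log2 change was positive for nmt1 (0.47), thi2 (2.01), cpc2 (1.94), snz1 (1.80), bsu1 (0.69), spi1 (1.67), ser3 (1.98), met17 (0.013), SPBC8D2.18c (1.85), pus2 (0.22), nrm1 (1.14), sam1 (1.70), lys3 (1.59), adg3 (1.95), mid2 (1.56), exg1 (0.89), nda2 (1.86), fio1 (1.28), str1 (1.46), erg6 (1.28), hmg1 (2.25), erg1 (1.70) and hcs1 (2.25). It was also positive, and past the threshold, for 4 genes that had not passed with TMM: sul2 (1.62), rar1 (2.57), nrs1 (2.03) and gas1 (2.53). The members' mean share was 0.0253% of aligned reads at 0h and 0.0743% at 24h. With no low-count filter 337 features were called lower and 479 higher, and the median was -1.52. With a minimum count of 30 the numbers were 76, 100 and 26 members lower, with a median of -2.05. The rule gave 355 genes with a growth minimum of 10, 114 with 40, 50 with a ratio limit of 1 and 437 with 3. A limit of 0.5 on mean CPM gave 154 genes, 142 of them members. Keeping mrpl symbols, an alternative added after seeing the data, gave 222.

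Leaving out each library in turn gave 147 to 235 features lower, 110 to 204 higher, 99 to 147 members lower and 0 higher, medians of -1.99 to -1.77, 33 to 886 genes by the rule, and member shares of 4.21 to 5.13% at 0h and 1.72 to 2.07% at 24h. Same-numbered libraries correlated at 0.04, 0.14 and 0.16 in their deviations, so the numbers were not taken to pair the samples, though every library correlated best with its own number. With the replicate block 271 features were called lower and 279 higher, 134 members lower and 0 higher; rar1, nrs1 and gas1 passed and fio1 and str1 did not. Over 28 named genes, 265 of 346 values kept direction and side of the threshold, 41 no longer passed, 13 newly passed, 23 called values changed sign, and so did the 4 that had not passed. The cause of these differences was not tested. Growth libraries of 48040 to 145861 assigned reads limit what can be seen in genes with about 20 reads.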
